A study of Mus musculus with 8 samples.

Results

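Chromatin immunoprecipitation sequencing (ChIP-seq) peaks were described at 8 genes of the mTOR and Akt pathway, Mtor, Rptor, Rictor, Akt1, Akt2, Tsc1, Tsc2 and Rheb. The genes were listed by name, by a rule that uses no measured value but with earlier results of these data known, out of 21887 protein-coding genes of the mouse annotation. Every peak in a gene body or within 10 kb of either end was taken, which gave 121 peaks over 855 kb. The peaks came from wild-type mouse embryonic fibroblasts (MEF), primary connective tissue cells from E15.5 embryos of the C57BL/6 strain, grown for 2 to 4 passages and labelled Hmga2 wt. One list was made with an antibody to HMGA2, a chromatin protein whose AT-hooks bind the minor groove of AT-rich DNA. A second list was made with an antibody to γ-H2AX (H2AXS139ph in the labels), the histone variant H2AX phosphorylated near its C-terminus. The third was made with an antibody to ATM, which is activated by DNA breaks and phosphorylates H2AX, among other substrates. Each list came from 1 library, so there was no replicate error and no test between conditions. Hmga2 knockout libraries and input DNA also belong to the 8 samples of the series, but their values were not analysed here. No expression was measured in these libraries, so the cell type could not be checked against markers.

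The pathway couples growth factor and nutrient signals to protein synthesis and growth. The kinase mTOR, encoded by Mtor, works in a complex with raptor (Rptor), which recruits its substrates, and in a separate complex with rictor (Rictor), which phosphorylates AKT kinases. AKT1 and AKT2 phosphorylate tuberin, the product of Tsc2, which together with hamartin (Tsc1) keeps the small GTPase RHEB inactive. Active RHEB switches on the raptor complex. The protein products were not measured here.

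Of the 121 peaks, 36 were HMGA2 peaks, 46 γ-H2AX peaks and 39 ATM peaks. An HMGA2 peak was present in 6 of the 8 genes with their flanks, against 74.6% of all protein-coding genes. For γ-H2AX the count was 8 of 8, against 79.2%, and for ATM 7 of 8, against 77.7%. Peaks of all 3 antibodies were found at 5 genes, Mtor, Rptor, Rictor, Akt2 and Rheb, against 54.9% of all genes. The 121 peaks were spread through the genes, with 104 touching a gene body, 9 in the upstream flanks and 8 in the downstream flanks. Only 1 of them touched a promoter window, taken as 250 bp before to 50 bp after a RefSeq start site. That peak was an HMGA2 peak over the outermost start site of Akt1, so that 1 of the 8 genes had an HMGA2 peak at a listed window, against 1.52% of the protein-coding genes with such a window. No γ-H2AX or ATM peak touched a window of the 8 genes, against 3.53% of promoter windows for γ-H2AX and 1.81% for ATM. The sequence of this window is shown because it carries the only peak of any antibody at a listed start site of the 8 genes. It lies on the minus strand at chr12:112674835-112675134 of build GRCm38.p6, the assembly of mm10. The HMGA2 peak, chr12:112674823-112675015 with a score of 27.6, covered the 181 bases in capitals of the RefSeq window. Scores are the authors' MACS14 values, -10 times the log10 of p, so that 20 is their threshold.
Akt1 outermost start: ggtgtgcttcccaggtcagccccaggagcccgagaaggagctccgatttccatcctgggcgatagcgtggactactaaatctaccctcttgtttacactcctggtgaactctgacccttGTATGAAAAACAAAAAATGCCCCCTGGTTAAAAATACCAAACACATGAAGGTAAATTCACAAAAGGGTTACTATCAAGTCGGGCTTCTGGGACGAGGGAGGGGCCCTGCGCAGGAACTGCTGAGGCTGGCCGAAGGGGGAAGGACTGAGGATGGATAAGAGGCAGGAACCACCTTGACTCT
A further Akt1 start site lies downstream in the gene, and its window, at chr12:112674227-112674526 on the minus strand, carried no peak. It is shown for its different base composition.
Akt1 inner start: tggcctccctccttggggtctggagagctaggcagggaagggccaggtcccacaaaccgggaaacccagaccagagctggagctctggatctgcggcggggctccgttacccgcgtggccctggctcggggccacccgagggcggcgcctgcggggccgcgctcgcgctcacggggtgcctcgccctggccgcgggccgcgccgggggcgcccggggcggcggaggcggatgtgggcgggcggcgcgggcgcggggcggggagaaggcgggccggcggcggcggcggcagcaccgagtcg
The window under the HMGA2 peak held 47.7% A and T, and its covered bases held 49.7%, with a longest run of A or T of 9 bases. The inner window held 20.3% A and T, with a longest run of 3 bases. Only 1.05% of 32851 RefSeq promoter windows held less A and T. The outermost window was close to the median of 47.3% for every promoter window. The 479 windows touched by an HMGA2 peak, 1.46% of them, had a median of 55%, whereas the medians were 46.3% for windows touched by γ-H2AX and 49.7% for those touched by ATM. Only this 1 window of the 8 genes enters such a comparison.

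HMGA2 peaks touched only 1.46% of all promoter windows, so a window without one is the usual case. The windows below therefore cannot show whether base content and HMGA2 peaks go together. The windows of Rptor, at chr11:119602655-119602954, and of the outermost start of Akt2, at chr7:27591302-27591601, both on the plus strand, are shown from RefSeq (GRCm38.p6) with their longest run of A or T in capitals.
Rptor start: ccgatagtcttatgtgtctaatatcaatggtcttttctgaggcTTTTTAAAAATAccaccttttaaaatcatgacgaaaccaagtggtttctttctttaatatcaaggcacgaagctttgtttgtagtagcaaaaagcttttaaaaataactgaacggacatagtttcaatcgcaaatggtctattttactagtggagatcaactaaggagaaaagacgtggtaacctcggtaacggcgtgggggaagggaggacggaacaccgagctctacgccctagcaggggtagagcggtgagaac
Akt2 outermost start: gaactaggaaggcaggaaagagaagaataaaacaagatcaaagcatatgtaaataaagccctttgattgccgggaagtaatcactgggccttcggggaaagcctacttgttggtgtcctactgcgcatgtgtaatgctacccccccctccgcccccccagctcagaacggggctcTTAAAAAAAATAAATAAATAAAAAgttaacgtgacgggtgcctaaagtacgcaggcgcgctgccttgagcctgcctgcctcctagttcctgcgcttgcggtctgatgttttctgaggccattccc
The Rptor window held 58.3% A and T, more than 85.9% of promoter windows, with a longest run of 12 bases. No HMGA2 peak lay within 33.6 kb of the Rptor start site. The Akt2 window held 50% A and T, more than 59.5% of promoter windows. Its longest run was 24 bases, a length that 0.88% of promoter windows reach or exceed. Its nearest HMGA2 peak began 1.89 kb downstream of the start site. Among the other genes, A and T made up 43.3% of the Mtor window, 42.7% of the Tsc1 window, 35.0% of the Tsc2 window, 30.0% of the Rheb window and 21.7% of the Rictor window. None of these windows carried a peak.

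**Figure D1:**
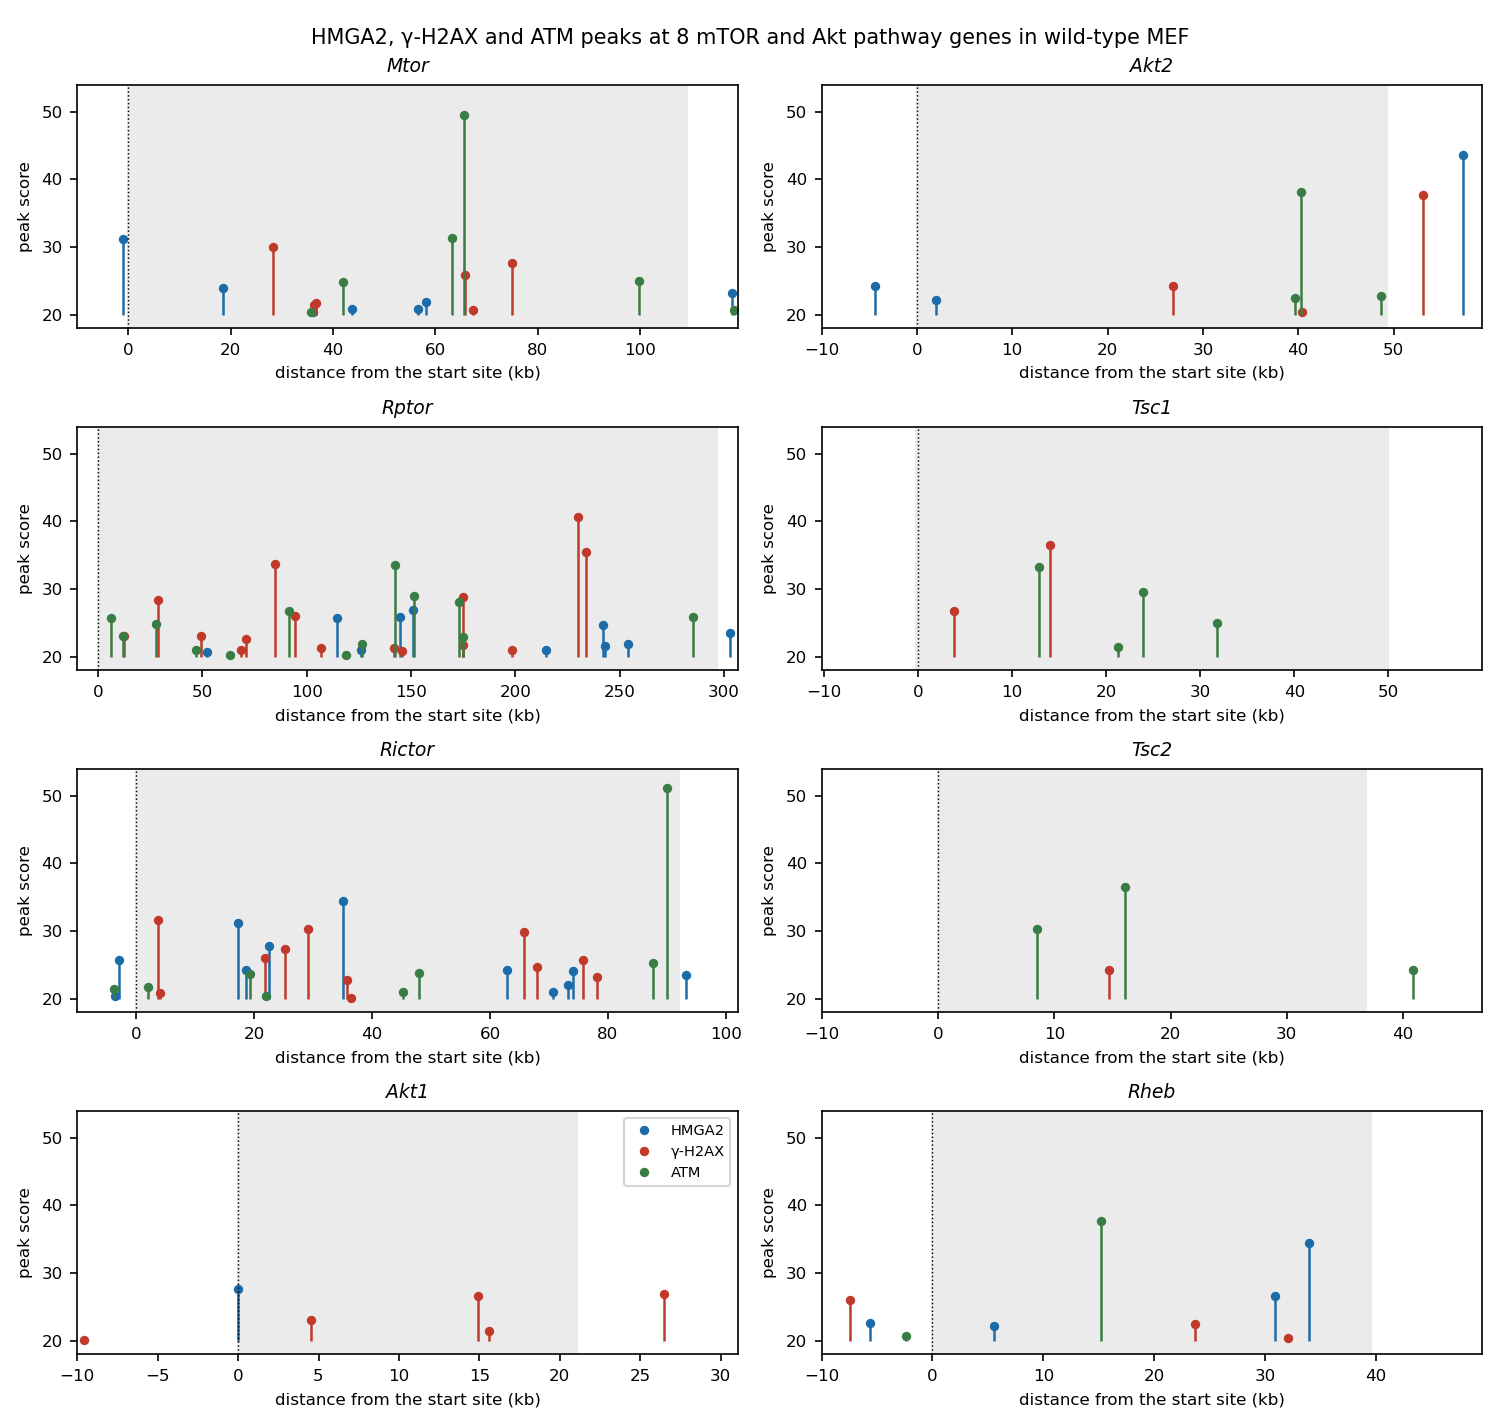
Peaks at each of the 8 genes, with distance from the outermost start site in kb on the x axis and the authors' peak score on the y axis. Each stem is 1 peak, the grey band is the gene body, the dotted line is the start site, and the window extends 10 kb beyond either end. Tsc1 and Tsc2 show no HMGA2 stem and Akt1 shows no ATM stem, and a single stem, of HMGA2 at Akt1, stands on a start site.

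Mtor, the kinase gene at chr4:148448582-148557685, carried 7 HMGA2, 6 γ-H2AX and 6 ATM peaks. Its highest HMGA2 peak, chr4:148447395-148447598 with a score of 31.2, lay 984 bp upstream of the start site. The other HMGA2 peaks scored between 20.4 and 23.9. The highest ATM peak, chr4:148514119-148514293, reached 49.5 and lay 65.5 kb into the gene, where it overlapped a γ-H2AX peak scoring 25.9. The highest γ-H2AX peak, chr4:148476780-148476958, scored 30.0. The nearest γ-H2AX peak to the start site was 10.4 kb upstream, just outside the window, and the nearest ATM peak 35.6 kb downstream, so HMGA2 was the one antibody with a peak close to the start. Past the end of Mtor an HMGA2 peak at chr4:148566489-148566642 (23.2) and an ATM peak at chr4:148566939-148567109 (20.7) lay 297 bp apart inside the neighbouring gene Exosc10, which encodes a nuclease of the RNA exosome.

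Rptor, at chr11:119602905-119899591 the longest of the genes at 297 kb, carried 10 HMGA2, 15 γ-H2AX and 13 ATM peaks. Its HMGA2 peaks were low, between 20.7 and 26.9, and the first lay 52.3 kb into the gene. The highest γ-H2AX peak, chr11:119832875-119833150, scored 40.7 and touched Rptoros, a long non-coding RNA gene inside Rptor. A further γ-H2AX peak at chr11:119836502-119836777 scored 35.4. Both were 276 bp wide, against a median of 170 bp for the γ-H2AX peaks of the 8 genes. The highest ATM peak, chr11:119745286-119745446, scored 33.5. ATM was nearest to the start site of Rptor, 5.95 kb downstream with a score of 25.7, and γ-H2AX followed at 12.3 kb.

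Rictor, at chr15:6708349-6800401, had the most peaks of the 8 relative to its length, with 11 HMGA2, 11 γ-H2AX and 8 ATM peaks over a gene of 92.1 kb. The highest HMGA2 peak was chr15:6743332-6743553 with a score of 34.5. The highest γ-H2AX peak, chr15:6711973-6712205, scored 31.6 and lay 3.59 kb downstream of the start site. The highest ATM peak, chr15:6798331-6798414, scored 51.1, more than any other peak of the 8 genes, and lay near the 3′ end of the gene, 90.0 kb from the start site. An HMGA2 peak lay 2.87 kb upstream of the start and an ATM peak 1.93 kb downstream of it. All 3 antibodies therefore had a peak within 4 kb of the Rictor start site but none within 1 kb.

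Akt1, at chr12:112653821-112674884 on the minus strand, was the 1 gene without an ATM peak, with 1 HMGA2, 5 γ-H2AX and 0 ATM peaks. The HMGA2 peak over the start site also lay within Gm30150, a long non-coding RNA gene that overlaps the start of Akt1 on the other strand, and it cannot be assigned to either gene. The highest γ-H2AX peak, chr12:112648316-112648449 with a score of 26.9, lay in Siva1, an apoptosis gene downstream of Akt1. The nearest γ-H2AX peak to the start site was 4.47 kb away inside the gene, and the nearest ATM peak 27.6 kb upstream. The stretch without an ATM peak around Akt1 was 116 kb long, a length that 0.809% of the intervals between ATM peaks reach. A gene falls in a long interval more often than in a short one, so this share makes the stretch look rarer than it is. Counted by gene, 22.2% of protein-coding genes with windows of 30 to 50 kb had no ATM peak.

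Of the γ-H2AX peaks in Akt1, chr12:112659188-112659353 (21.4) covered all 75 bases of the microRNA gene Mir6939, at chr12:112659277-112659351 on the minus strand. Its mature sequences from RefSeq (GRCm38.p6) are shown with their seeds, bases 2 to 8, in capitals, since they identify the annotated element under the peak.
mmu-miR-6939-5p: cAGGCAGCugguugguggaag
mmu-miR-6939-3p: cCUCACUUgacccgcugcag
The pair of arms have different seeds. Expression of the microRNA was not measured.

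Akt2, at chr7:27591552-27640826, carried 3 peaks of each antibody. Its highest HMGA2 peak, chr7:27648728-27648836, scored 43.6, the highest HMGA2 score among the 8 genes, and lay 7902 bp past the end of the gene. The highest γ-H2AX peak, chr7:27644504-27644733 (37.7), lay 3678 bp past that end. The highest ATM peak, chr7:27631693-27631951 (38.1), lay 40.1 kb into the gene. An ATM peak at chr7:27640151-27640307 (22.8) lay within 1 kb of the 3′ end. Nearest to the outermost start site were HMGA2 peaks, 1.89 kb downstream with a score of 22.1 and upstream at chr7:27587110-27587285 with a score of 24.2.

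Tsc1 and Tsc2, whose products form the inhibitor of RHEB, were the genes without an HMGA2 peak. Tsc1, at chr2:28640993-28691172, carried 0 HMGA2, 2 γ-H2AX and 4 ATM peaks, all inside the gene. Its highest γ-H2AX peak, chr2:28655190-28655294, scored 36.5, and its highest ATM peak, chr2:28654035-28654167, scored 33.3. The 2 peaks lay 1023 bp apart. The stretch without an HMGA2 peak around Tsc1 was 372 kb long, from 231 kb before the gene to 91.4 kb after it, and only 79 of the 152813 intervals between HMGA2 peaks were at least as long, against a median interval of 9.61 kb. Tsc2, at chr17:24595816-24632676 on the minus strand, carried 0 HMGA2, 1 γ-H2AX and 3 ATM peaks. Its highest ATM peak, chr17:24616468-24616570, scored 36.5, and its γ-H2AX peak, chr17:24617879-24618059, scored 24.3. One of the ATM peaks (24.2) lay in the adjoining gene Pkd1, which encodes polycystin. The HMGA2-free stretch around Tsc2 was 119 kb, which 0.761% of intervals reach. A gene falls in a long interval more often than in a short one, so both comparisons with intervals make the stretches look rarer than they are. Counted by gene, 10.4% of protein-coding genes with windows of 50 to 80 kb, the range that holds Tsc1 and Tsc2, had no HMGA2 peak.

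Rheb, the GTPase gene at chr5:24802823-24842361 on the minus strand, carried 4 HMGA2, 3 γ-H2AX and 2 ATM peaks. Its highest HMGA2 peak, chr5:24808242-24808523, scored 34.5 and lay in the 3′ part of the gene, 33.8 kb from the start site. The highest ATM peak, chr5:24827063-24827224, scored 37.6, and the highest γ-H2AX peak, chr5:24849752-24849878 (26.0), lay 7.39 kb upstream of the start site. An ATM peak (20.7) was nearest to the start, 2.34 kb upstream. No peaks of different antibodies lay within 500 bp of each other in Rheb, Akt1, Tsc1 or Tsc2.

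Within 1 kb of an end there was an HMGA2 peak at 2 genes, Mtor and Akt1, against 17.9% of all protein-coding genes. An ATM peak lay there at 1 gene, Akt2, against 16.1% of all genes, and a γ-H2AX peak at 0 genes, against 23.3%. None of the 121 peaks was in the deposited promoter lists. The γ-H2AX list touched 0 of the 8 genes with their flanks, against 14.4% of protein-coding genes, and the ATM list 0 of 8, against 5.79%. With only 8 genes, shares of this size give about 1 gene or none. The promoter lists lay close to RefSeq start sites, with 81.1% of the γ-H2AX regions and 79.3% of the ATM regions within 1 kb of one.

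Over the bodies and flanks, counts were set beside those expected if each list were rotated around its chromosome. HMGA2 had 36 peaks against 46.9 expected, a ratio of 0.767 (95% Poisson interval 0.537 to 1.06, counting error only). The ratio was 0.953 over the 21879 other protein-coding genes. For γ-H2AX it was 1.09 (0.800 to 1.46), with 46 peaks against 42.1 expected, and 1.12 over the other genes. For ATM it was 1.00 (0.713 to 1.37), with 39 peaks against 38.9 expected, and 0.991 over the other genes. These ratios pool the genes, so long genes weigh more. The median of the single-gene HMGA2 ratios was 0.767 at the 8 genes, above the 0.701 of the other genes. For γ-H2AX the medians were 0.974 and 0.936, and for ATM 1.01 and 0.870. The HMGA2 ratio changed sides when the expected count was taken from the list's own density within 1 Mb on either side, at 1.31 (0.916 to 1.81) with 27.5 expected. ATM then had a ratio of 1.32 (0.941 to 1.81) and γ-H2AX 1.14 (0.831 to 1.51). Each of these intervals, over peaks of every score, includes 1. When ATM peaks scoring under 30 were left out, 9 peaks remained and the ATM ratio was 2.26 (1.03 to 4.28). Among the intervals for the 8 genes together, under all settings tried, it was the only one to lie above 1. It covers counting error in 1 library and is not a test.

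**Figure D2:**
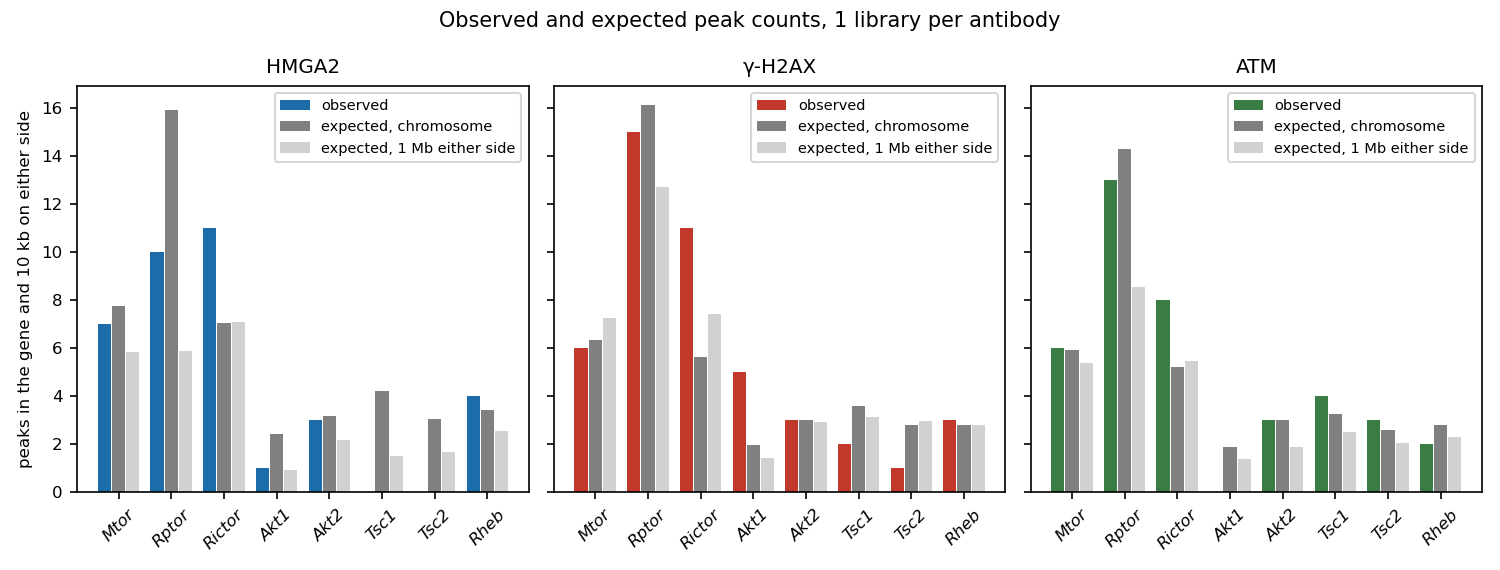
Number of peaks in each gene and its 10 kb flanks (y axis), by gene (x axis), for HMGA2, γ-H2AX and ATM. Coloured bars are observed counts, dark grey bars the mean over rotations of the list around the chromosome, and light grey bars the count expected from the density within 1 Mb on either side. For HMGA2 the light bars are far below the dark ones at Rptor (5.86 against 15.9) and Tsc1 (1.51 against 4.22).

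Ratios of single genes spread more widely, but each rests on few peaks, so its counting error is larger. Their intervals all included 1, except that of HMGA2 at Tsc1. The observed count was above the chromosome's expectation at 2 of the 8 genes for HMGA2, against 34.4% of all protein-coding genes, at 3 for γ-H2AX, against 46.7%, and at 4 for ATM, against 40.7%. With the density within 1 Mb these numbers were 6, 5 and 6. The shares of all protein-coding genes were not computed for that density, so these counts have no reference. At Rictor, whose observed counts were above the expected ones for all antibodies, the HMGA2 ratio was 1.57 (0.783 to 2.81), the γ-H2AX ratio 1.96 (0.978 to 3.51) and the ATM ratio 1.54 (0.663 to 3.03). Counts of all antibodies were above expectation in 24.9% of protein-coding genes with windows of 100 to 150 kb, the range that holds Rictor and Mtor. At Akt1 the γ-H2AX ratio was 2.55 (0.829 to 5.96), with 5 peaks against 1.96 expected, a ratio higher than that of 92.9% of other genes. At least 5 γ-H2AX peaks were found in 9.74% of genes with windows of 30 to 50 kb, and no ATM peak, as in Akt1, in 22.2% of them. Tsc1 had 0 HMGA2 peaks against 4.22 expected, and its interval reached up to 0.875. With the density within 1 Mb, 1.51 were expected at Tsc1 and 1.65 at Tsc2, so that the absence at these genes is within counting error there. No HMGA2 peak was found in 10.4% of genes with windows of 50 to 80 kb.

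Most of the 121 peaks were close to the calling threshold, with 72 under a score of 25 and 22 at 30 or more. For HMGA2, 86.1% of peaks at the 8 genes scored under 30, against 88.4% in the whole list. The γ-H2AX share was 82.6%, against 89.7%, and the ATM share 76.9%, against 89.8%. The median HMGA2 score was 23.7 at the 8 genes, against 23.8 in the list, the γ-H2AX median 24.2, against 23.6, and the ATM median 24.8, against 23.6. The ATM ratio of 2.26 at scores of at least 30 rested on 9 peaks in the 8 genes, and the same ratio was 0.985 over the other genes. Scores come in steps, and 54 of the 121 peaks had exactly the score of another peak of these genes.

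Peaks of different antibodies overlapped by at least 1 bp at 6 places in the 8 genes, which involved 12 peaks. In 4 of the places a γ-H2AX peak met an ATM peak. They were in Rptor at chr11:119777568-119777786 and chr11:119777589-119777778 (sharing 190 bp), in Akt2 at chr7:27631856-27632028 and chr7:27631693-27631951 (96 bp), in Mtor at chr4:148514247-148514417 and chr4:148514119-148514293 (47 bp), and in Rictor at chr15:6730125-6730294 and chr15:6730289-6730535 (6 bp). Thus 4 of 46 γ-H2AX peaks, 8.70%, touched an ATM peak, against 2.62% of the γ-H2AX peaks in the windows of other protein-coding genes and 0.729 peaks expected by rotation. The share rests on these 4 places and was not tested. No overlap between antibodies remained when both scores had to be at least 30. HMGA2 met γ-H2AX at 1 place in Mtor, chr4:148484600-148484772 and chr4:148484730-148484966 (43 bp). It met ATM at 1 place in Rptor, chr11:119754028-119754161 and chr11:119754137-119754260 (25 bp). For HMGA2 these were 2.78% of its 36 peaks in each case, against 3.06% touching γ-H2AX and 2.44% touching ATM in other genes.

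At 2 places peaks of all 3 antibodies followed each other with gaps of at most 500 bp, a grouping chosen after the peaks were seen. In Mtor, 4 peaks lay within 1037 bp, 35.6 kb into the gene, in the order ATM (chr4:148484215-148484387), HMGA2, γ-H2AX and a further γ-H2AX peak (chr4:148485088-148485251), with scores of 20.4, 20.4, 21.5 and 21.7. In Rictor, 3 peaks lay within 841 bp, 21.7 kb into the gene, in the order γ-H2AX, ATM and HMGA2 (chr15:6730774-6730965), with scores of 26.0, 20.3 and 27.8. None of these scores reached 30. Such groups were found in 4.40% of all protein-coding genes and in 10.9% of genes with windows of 100 to 150 kb, and there were 1633 of them in the genome.

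**Figure D3:**
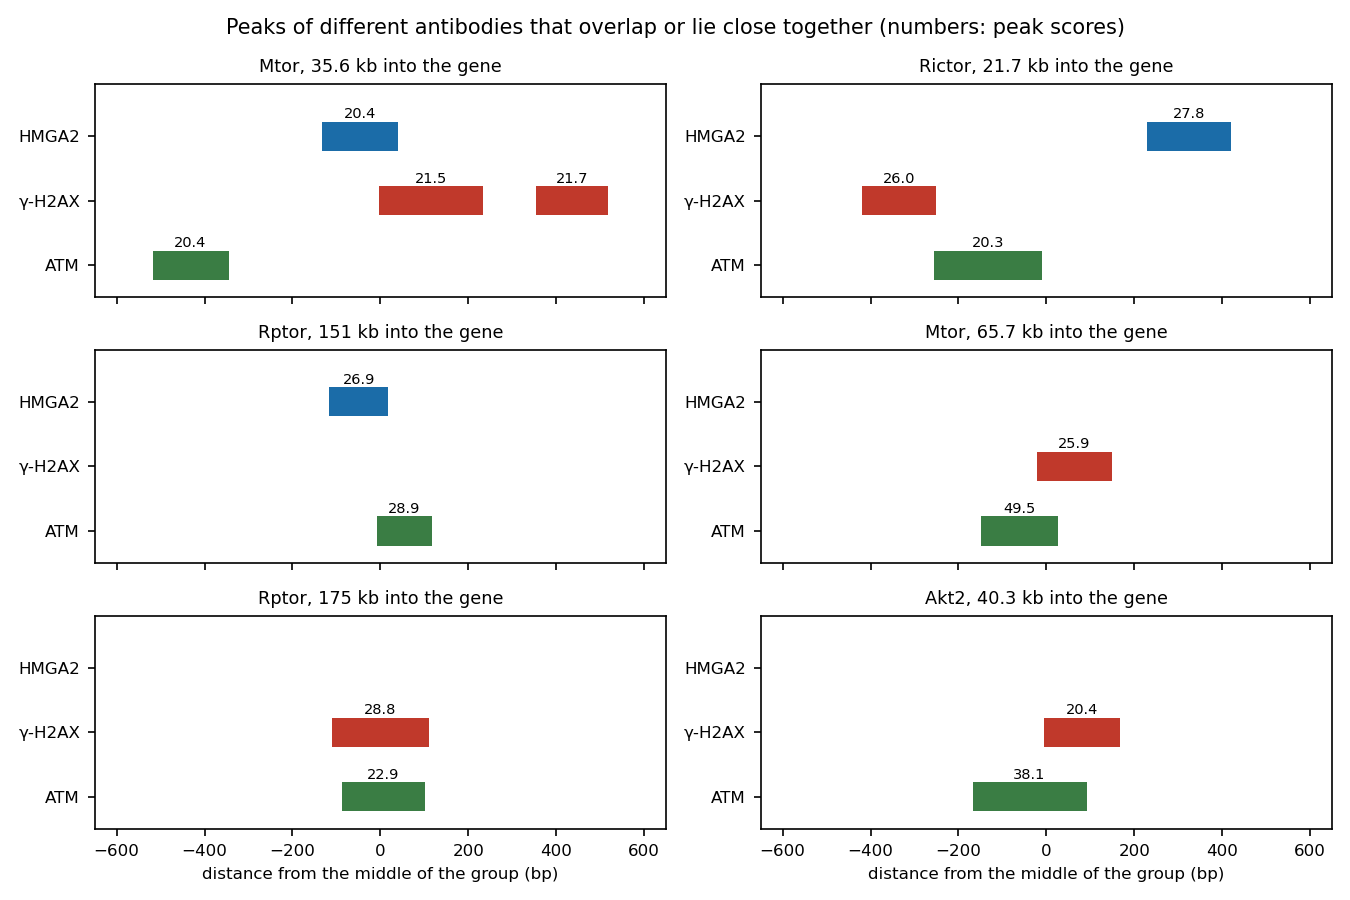
The places in the 8 genes where peaks of different antibodies overlap or form a group of all 3, with distance in bp from the middle of each group along the chromosome on the x axis and the antibody on the y axis. Bars are peaks to scale and the numbers are their scores. In Mtor at 35.6 kb and Rictor at 21.7 kb all 3 antibodies are present, and at 65.7 kb in Mtor an ATM peak of 49.5 overlaps a γ-H2AX peak of 25.9.

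With the overlaps included, 28 of the 121 peaks lay within 500 bp of a peak of another antibody. All of them were in Mtor, Rptor, Rictor and Akt2. The share of peaks this close was not computed for other protein-coding genes, so the count has no reference. Mtor, Rptor and Rictor also held more peaks than the remaining genes, and the close peaks were not set against peak number. In Rptor an ATM peak at chr11:119614842-119614996 lay 197 bp from a γ-H2AX peak at chr11:119615193-119615347. Also in Rptor, an HMGA2 peak at chr11:119728997-119729192 lay 202 bp from an ATM peak at chr11:119729394-119729591, and a γ-H2AX peak at chr11:119777910-119778073 lay 132 bp from the overlapping ATM peak. Upstream of Rictor an ATM peak at chr15:6704471-6704614 lay 76 bp from an HMGA2 peak at chr15:6704690-6704862. Inside Rictor, HMGA2 at chr15:6726955-6727098 was 470 bp from ATM at chr15:6727568-6727719, and its highest HMGA2 peak was 463 bp from γ-H2AX at chr15:6744016-6744145. These neighbours had scores between 20.4 and 34.5.

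A further 57 genes of the pathway, listed by role with earlier results of these data known, were described in the same windows. An HMGA2 peak was found in 51 of them (89.5%), against 74.6% of all protein-coding genes. A γ-H2AX peak was found in 55 (96.5%), against 79.2%, and an ATM peak in 52 (91.2%), against 77.7%. Peaks of all 3 antibodies were found in 44, against 54.9% of all protein-coding genes. The HMGA2 count was 1.23 times that expected, against 0.953 times over the protein-coding genes other than the 8. The γ-H2AX count was 1.44 times that expected, against 1.12 times, and the ATM count 1.05 times, against 0.991 times. The γ-H2AX ratio ranged from 1.16 in inputs to TSC and RHEB to 1.54 in downstream targets. The HMGA2 ratio ranged from 0.720 in further subunits of the mTOR complexes to 1.57 in the PI3K and upstream Akt genes. Within 1 kb of a gene end, γ-H2AX peaks lay at 23 of the 57 genes (40.4%), against 23.3% of all genes, HMGA2 peaks at 15 (26.3%), against 17.9%, and ATM peaks at 12 (21.1%), against 16.1%. These shares were not tested, and gene length was not matched.

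**Figure D4:**
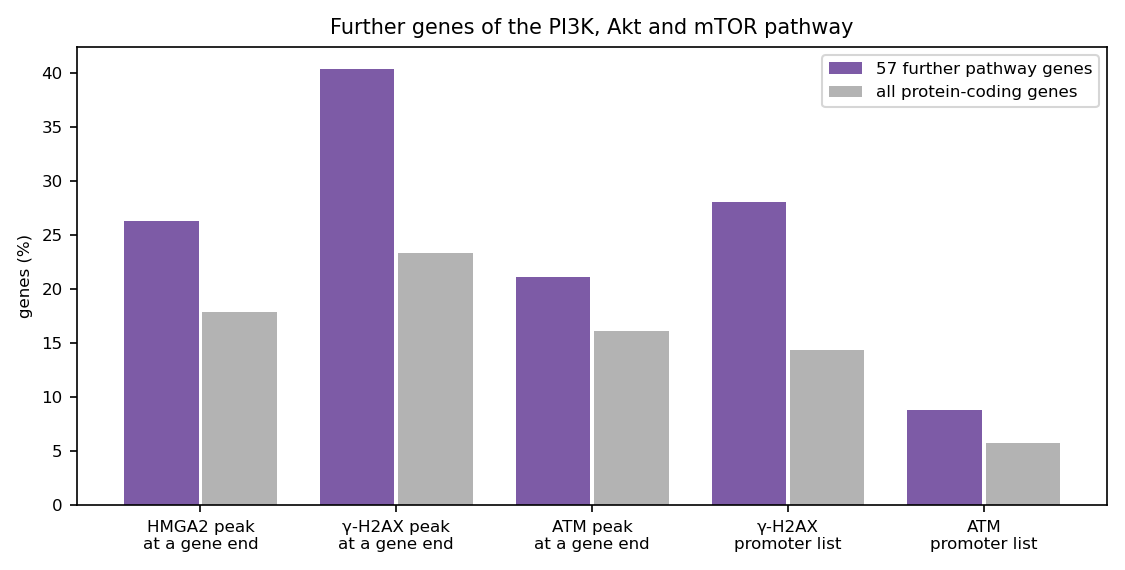
Share of genes in percent (y axis) with a peak within 1 kb of a gene end, or with a region of a promoter list in the body or within 10 kb (x axis). Purple bars are the 57 further pathway genes and grey bars all protein-coding genes. The γ-H2AX bars are 40.4% against 23.3% at gene ends and 28.1% against 14.4% for the promoter list.

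The γ-H2AX promoter list reached 16 of the 57 genes (28.1%), against 14.4% of all protein-coding genes, and at 10 the region lay within 1 kb of the gene's own end. These 10 included the mTOR complex component Akt1s1, the kinase Pdpk1 that phosphorylates AKT, the stress-induced inhibitors Ddit4, Sesn1 and Sesn2, Castor1, an arginine sensor, and Rps6kb1, which encodes the S6 kinase. Nprl2, Nprl3 and Depdc5, which encode the subunits of the GATOR1 complex that restrains mTOR when amino acids are scarce, were the other 3. At Prr5l, Tti1, Pik3r2, Inpp4b, Wdr24 and Rps6kb2 the region lay farther than 1 kb from the gene's ends. The ATM list reached 5 genes (8.77%), close to the 5.79% of all protein-coding genes. They were Rragc, Nprl2, Wdr24, Rps6kb1 and Eif4g1, and the region lay at the gene's own end in Rragc, a GTPase gene of the amino acid branch, and in Rps6kb1. The share of all genes with a listed region at their own end was not computed. An end can be the start or the 3′ end of a gene, and neighbouring genes at these regions were not examined. The regions can therefore not be assigned to the named genes alone.

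High HMGA2 peaks among the 57 genes were in Inpp4b, a phosphoinositide phosphatase gene (66.0), and in Prkaa1, the gene of a catalytic subunit of AMP-activated kinase (50.7). The highest γ-H2AX peaks were in Sesn2 (60.8, at chr4:132511221-132511570, upstream of the gene), Pik3r1, which encodes a regulatory subunit of PI3K (52.0), and the transcription factor gene Foxo1 (49.0). The highest ATM peaks were in Prkaa1 (43.6), Inpp4b (40.5) and Pik3r1 (36.5). Prkaa1 was the 1 gene of the 57 with a peak of each antibody within 1 kb of an end, against 1.12% of all protein-coding genes.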

How the data were processed

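The peak lists of HMGA2, γ-H2AX and ATM in wild-type cells were used, 152834, 124947 and 119570 peaks. Per the labels, the authors called them with MACS14 without its model, at p 0.01 and a shift size of 30 bp. The deposited score is -10 times the log10 of p. The submitters' processing notes name Trimmomatic, Bowtie2, SAMtools and HOMER and the mm10 build. The control of the peak calls is not given in the sources used here, and depth is unknown. The authors' deposited promoter lists hold coordinates of another kind (unit other) with no value. Gene bounds and sequences came from RefSeq GRCm38.p6. Promoter windows existed for 49 of the 57 further genes, and exon and intron positions were not annotated.

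Peaks touching a window by at least 1 bp were counted with Python 3.11.15, pandas 2.3.3 and scipy 1.17.1. Expected counts are the exact mean over every circular rotation of a list between its chromosome's outermost peaks. They were tested on simulated data, and counts were checked against bedtools 2.31.1. Poisson intervals of 95% cover counting error only. No test was run, since each antibody had 1 library in each genotype. Members and lists were chosen with earlier results of these data known. All 8 genes are named; of the further genes, those with the 3 highest peaks of each antibody, peaks of all 3 at their ends, or a promoter region. A result that this rule names is not reported here. Flank widths, a score of 30, peak midpoints, local density and overlap rules were tried as alternatives. Histogram and plotting files were not used.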

Additional observations from a re-analysis of the deposited data

How the results depend on the processing

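Of 43 alternatives, 28 left a count within 1.5 times, or a ratio within its interval. These include flanks of 0, 5 and 20 kb and peak midpoints for counts and ratios at the 8 genes, and the promoter lists, which reached 0 genes under both windows. With a score of at least 30 the 8 genes held 5 HMGA2, 8 γ-H2AX and 9 ATM peaks, and the ratios to expectation moved to 1.81 for γ-H2AX (0.783 to 3.57) and 2.26 for ATM (1.03 to 4.28). Fewer peaks enter at this threshold. With the density within 1 Mb on either side as expectation, the HMGA2 ratio moved to 1.31. For the 57 further genes, a score of at least 30 left 20 with HMGA2, 25 with γ-H2AX and 13 with ATM. The shares of all protein-coding genes at that score were not computed, so these counts have no reference. Windows of 1 kb around gene ends left 15, 23 and 12. Overlap between antibodies involved 4 peaks when at least 50% of the shorter peak had to be shared, 24 when midpoints had to lie within 500 bp, and 0 when both scores had to be at least 30. No paired analysis was possible because there was 1 library per antibody and the results come from no test. For the same reason no replicate could be left out.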
